A study of Mus musculus with 6 samples.

Results

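The genes described here encode the structural parts of tight and adherens junctions: claudins, occludin and its relatives, junctional adhesion molecules, nectins, catenins and the scaffolds beneath them. They were chosen by name: 34 symbols were looked up in the GENCODE M21 mouse annotation, and 33 matched a row of the count table, out of 55450 genes in all. The remaining symbol, Cldn25, has no gene of that exact name in this annotation, which lists Cldn25-ps instead.

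Tight junctions seal the cleft between neighbouring cells. Claudins form the sealing strands, occludin and tricellulin belong to the MARVEL family that shapes them, and zonula occludens proteins tie them to actin. Adherens junctions hold the cells together through cadherins, which catenins link to the cytoskeleton, and through nectins, which bind afadin. In brain endothelium these contacts are the paracellular part of the blood-brain barrier, and claudin 5 is its dominant claudin.

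RNA-seq of poly(A) RNA was compared between 3 mutant and 3 control libraries of brain endothelial cells taken from mouse pups on postnatal day 7. Mutant pups were Cdh5(PAC)-CreERT2; Rbpjflox/flox, and control pups were Cdh5(PAC)-CreERT2; Rbpjflox/WT, so control mice also carried the Cre and 1 floxed allele of Rbpj, the transcription factor through which Notch receptors act. Every pup of both groups was given 100 µg of tamoxifen on postnatal days 1 and 2, which switches on a Cre expressed from Cdh5 promoter sequences, Cdh5 being the gene of VE-cadherin. The background was a mix of FVB/N and C57BL/6, both sexes were used, and CD31-coated beads enriched the cells from digested brain. RNA of many animals was pooled, and separate pools for the 3 libraries of each genotype are not stated, so p-values measure the spread between libraries, which may be technical.

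Library totals were 75744913 to 81556241 counts in mutant and 78577192 to 82092461 counts in control libraries, with about 4 counts to 1 read pair. Rbpj had 47.9, 46.8 and 45.2 CPM (counts scaled to library size) in the mutant libraries and 54.3, 54.3 and 53.8 CPM in the control libraries, a modest difference at gene level (log2 fold change -0.21 ± 0.042 SE, adjusted p = 0.0129); exons outside the floxed segment also count towards it. On the second principal component mutant library 3 lay at -55.6, apart from the other mutant libraries at 31.2 and 26.2. The endothelial markers summed to 16182 to 17409 CPM in mutant and 16499 to 17177 CPM in control libraries, and all 15 genes of that list were detected. At an adjusted p under 0.05, 4 of the 15 (26.7%) were called higher and 4 (26.7%) lower, beside 7.56% and 6.83% of all genes. Cldn5 and Esam belong to that list, and the 13 others summed to 12230 to 13179 CPM in mutant and 12456 to 12998 CPM in control libraries.

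RNA of other cells was also present, and some of it moved with the genotype. Summed smooth muscle markers were at 192 to 226 CPM in mutant libraries, against 407 to 437 CPM in control libraries, and 7 of 8 were called lower. Fibroblast and meningeal markers summed to 601 to 788 CPM in mutant and 924 to 1042 CPM in control libraries, with 6 of 12 lower. Microglia markers were at 1289 to 1351 CPM in mutant and 1641 to 1690 CPM in control libraries (8 of 10 lower), and choroid plexus and ependymal markers, most of whose level is Ttr, at 3497 to 4549 CPM in mutant and 5164 to 5617 CPM in control libraries (2 of 10 lower). Pericyte markers were at 4238 to 4368 CPM in mutant and 3970 to 4074 CPM in control libraries, with 5 of 10 higher and 1 lower. These counts stand beside 7.56% of all genes called higher and 6.83% called lower. In bulk RNA of this kind, fewer cells of a type and less RNA per cell cannot be told apart.

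**Figure D1:**
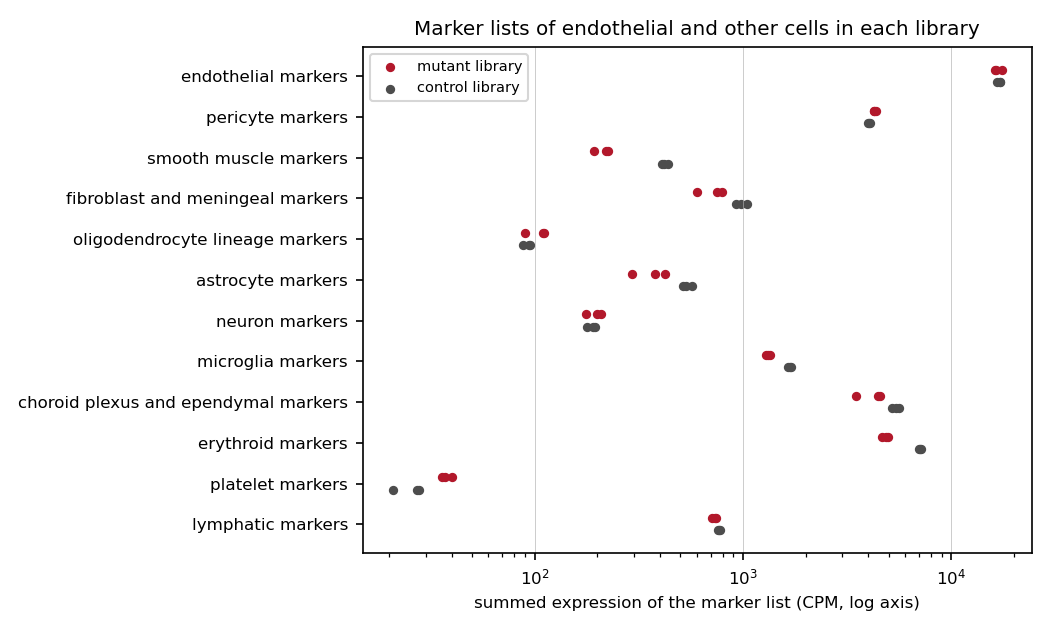
Summed CPM (log axis) of each marker list in every mutant (red) and control (grey) library, 1 point per library. Endothelial sums overlap between the groups, while smooth muscle sums lie at 192 to 226 CPM in mutant and 407 to 437 CPM in control libraries.

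All 33 junction genes passed the low-count filter, and 10 of them (30.3%) were called at an adjusted p under 0.05, beside 14.4% of all 19549 genes tested. Magi1, Jam3, F11r and Amotl1 rose in the mutant libraries, which is 4 of 33 (12.1%) against 7.56% of all genes. Cldn11, Jam2, Jup, Lsr, Amotl2 and Mpdz fell, which is 6 of 33 (18.2%) against 6.83%. All 10 changes were estimated at less than 1.5-fold. The 95% intervals of Magi1 (folds of 1.28 to 1.66) and Cldn11 (0.598 to 0.823) reached past that size. The median log2 fold change of the junction genes was -0.10, against -0.01 for all genes tested. Mutant and control libraries did not overlap for 16 of the 33 genes (48.5%), beside 34.1% of all genes. Of these, 7 (21.2%) lay higher in the mutant libraries, beside 16.8% of all genes, and 9 (27.3%) lay lower, beside 17.3%. The junction genes were chosen with earlier results of these data known, so these shares are a description and no independent evidence of an excess.

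**Figure D2:**
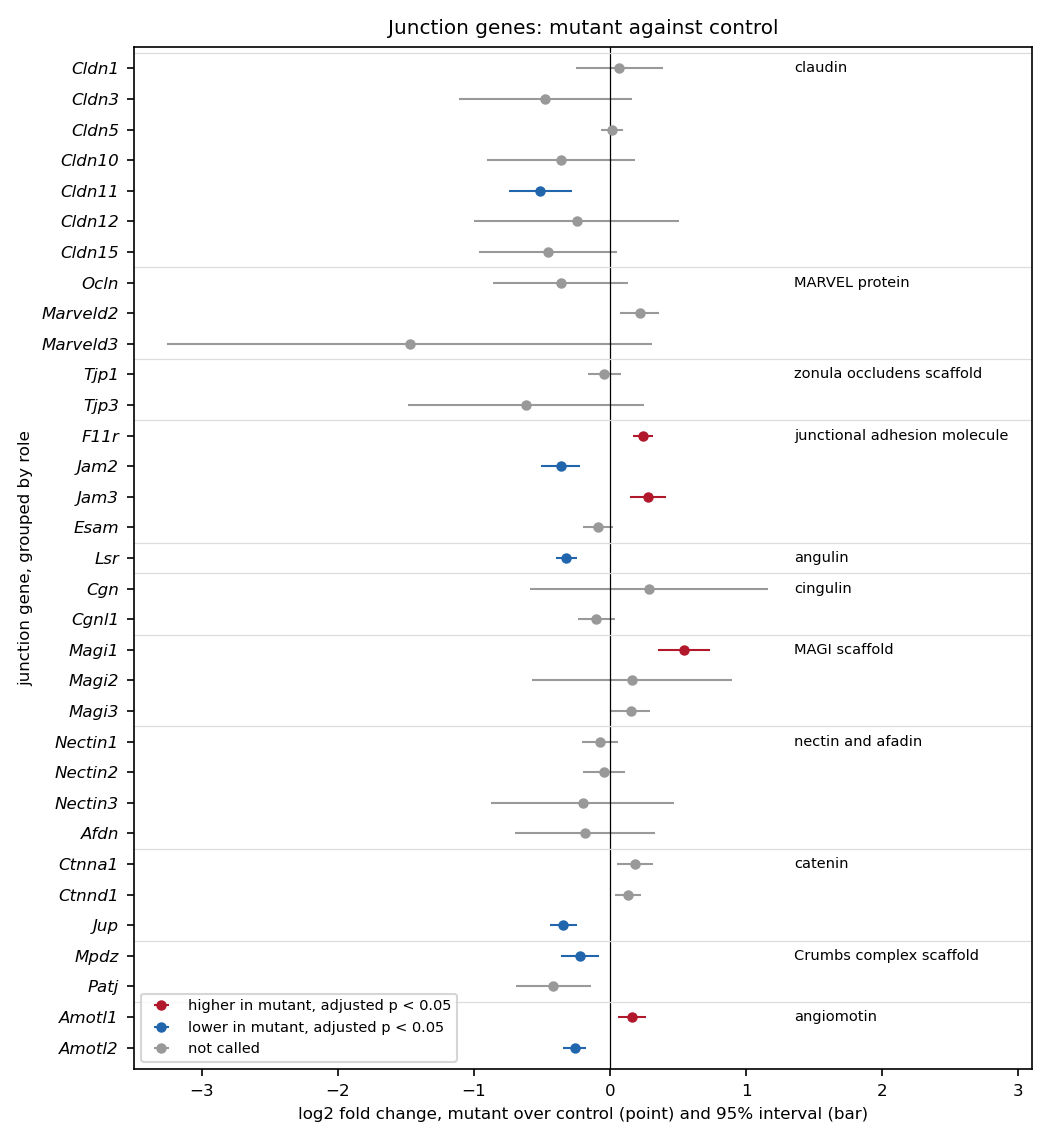
Log2 fold change of mutant over control for the 33 junction genes, ordered by role, with 95% intervals as bars, not adjusted for the number of genes. Red genes were called higher (4), blue genes lower (6) and grey genes were not called (23).

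Promoter sequences are shown for the called genes whose window holds the letters TGGGAA, a core of the sequence that RBPJ recognises, since deletion of Rbpj is what separates the groups. RefSeq windows on GRCm38.p6, from 250 bases before to 50 bases after an annotated start, were at hand for 26 of the 34 symbols, 37 windows in all, and for 7 of the 10 called genes. TGGGAA or its reverse complement TTCCCA stood in 11 of the 37 windows, and in 25.6% of the 32851 windows of all genes. Among called genes it was found once each in Cldn11 (chr3:31149670-31149969, plus strand, first base at -163 from the start), F11r (chr1:171437311-171437610, plus strand, at 34) and 1 of the Magi1 windows (chr6:93912914-93913213, minus strand, at -225). The Magi1 windows lie inside the gene as annotated (93675455 to 94283917), far from its outermost start, and use of these inner starts was not tested. Capitals mark the match in each 5′ to 3′ sequence.
Cldn11: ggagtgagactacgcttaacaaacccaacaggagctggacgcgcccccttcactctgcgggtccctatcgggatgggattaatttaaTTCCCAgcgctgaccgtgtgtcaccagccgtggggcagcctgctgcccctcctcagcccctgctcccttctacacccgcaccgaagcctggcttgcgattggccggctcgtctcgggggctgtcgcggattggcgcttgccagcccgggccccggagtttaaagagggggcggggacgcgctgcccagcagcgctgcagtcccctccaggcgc
F11r: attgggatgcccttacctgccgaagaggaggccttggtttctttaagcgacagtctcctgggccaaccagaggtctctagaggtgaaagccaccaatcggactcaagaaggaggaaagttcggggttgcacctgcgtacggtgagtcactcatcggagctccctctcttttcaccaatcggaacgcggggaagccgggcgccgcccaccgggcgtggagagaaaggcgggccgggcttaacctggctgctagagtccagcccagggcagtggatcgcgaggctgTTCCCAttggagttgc
Magi1: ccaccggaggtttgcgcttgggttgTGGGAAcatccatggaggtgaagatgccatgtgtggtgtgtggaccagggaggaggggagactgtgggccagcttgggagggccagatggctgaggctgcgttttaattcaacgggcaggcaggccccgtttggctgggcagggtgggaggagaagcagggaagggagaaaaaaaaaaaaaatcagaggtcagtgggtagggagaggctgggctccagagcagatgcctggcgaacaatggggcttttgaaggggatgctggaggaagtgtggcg
Cldn11 fell while F11r and Magi1 rose, so the called genes with these letters did not share a direction. A match describes the letters only.

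Among the claudins, the main endothelial member, Cldn5, was not called. Cldn5 (GRCm38 chromosome 16, bases 18776847 to 18778262, plus strand) had 2983, 3117 and 3185 CPM in the mutant libraries and 3025, 3052 and 3114 CPM in the control libraries. The groups overlapped, and the log2 fold change of 0.01 ± 0.033 (SE) had an adjusted p of 0.838. Its 95% interval, -0.063 to 0.092, corresponds to folds of 0.957 to 1.07, so a change of 1.5-fold in either direction lies outside it.

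Scaled to exon length, Cldn5 made up 99.1 to 99.2% of the summed level of the 7 listed claudins in mutant libraries and 98.8 to 98.9% in control libraries. Its mean level was 2186 CPM per kb in mutant and 2164 CPM per kb in control libraries, above every other junction gene examined here.

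Cldn11, a claudin of myelin and of the arachnoid barrier layer, was the only one of the 7 listed claudins to be called. On chromosome 3 from 31149920 to 31164324 (plus strand), it had 14.6, 15.1 and 12.4 CPM in the mutant libraries and 20.97, 18.3 and 20.7 CPM in the control libraries. Each mutant library was below each control library. The log2 fold change was -0.51 ± 0.098 (SE, adjusted p = 0.0125), and without control library 1 the adjusted p was 0.0536. Markers of the oligodendrocyte lineage, which also expresses Cldn11, summed to 90.3 to 110 CPM in mutant and 87.4 to 95.1 CPM in control libraries. Of 11 tested markers 2 (18.2%) were called higher and 1 (9.09%) lower, beside 7.56% and 6.83% of all genes, and Opalin was at 0 throughout. Smooth muscle, fibroblast and meningeal markers fell in the same libraries as given above, and their part in the Cldn11 result was not tested.

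The other listed claudins were low and not called. Cldn12 had 18.7, 26.6 and 30.4 CPM in mutant and 20.2, 35.3 and 34.2 CPM in control libraries, so the lowest library of each group stood well below the rest and the groups overlapped (log2 fold change -0.25 ± 0.292 SE, adjusted p = 0.680). Cldn1, a barrier claudin of epithelia, had 18.7, 17.4 and 13.7 CPM in mutant and 17.7, 13.9 and 15.9 CPM in control libraries (0.07 ± 0.137, adjusted p = 0.819).
Cldn3, a sealing claudin best known from epithelia, had 1.70, 1.94 and 1.09 CPM in mutant libraries and 2.41, 1.64 and 2.54 CPM in control libraries, with an overlap (-0.47 ± 0.271, adjusted p = 0.326); its single exon overlaps an antisense gene, Wbscr25. Cldn10 and Cldn15, which form ion channels between epithelial cells, were just as scarce: Cldn10 had 1.41, 0.862 and 1.19 CPM in mutant and 1.40, 1.43 and 1.61 CPM in control libraries (adjusted p = 0.392). Cldn15 had 1.18, 0.927 and 1.15 CPM in mutant and 1.25, 1.48 and 1.73 CPM in control libraries, which did not overlap (-0.46 ± 0.218, adjusted p = 0.235). At this depth the intervals of these 3 genes are wide, and a modest change could not be detected.

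The MARVEL genes gave no call, though occludin and tricellulin pointed opposite ways. Ocln had 106, 160.2 and 167 CPM in the mutant libraries and 200.3, 182 and 175 CPM in the control libraries. Every mutant library was below every control library, but mutant library 1 lay far below the others. The log2 fold change was -0.36 ± 0.192 (SE), its 95% interval ran from -0.858 to 0.134, and the adjusted p was 0.322. With 1 library left out the log2 fold change lay between -0.47 and -0.18.

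Marveld2 encodes tricellulin, which sits where the corners of neighbouring cells meet. It had 39.8, 40.4 and 40.4 CPM in mutant and 31.9, 36.3 and 35.6 CPM in control libraries, again without overlap but in the higher direction (0.22 ± 0.060, adjusted p = 0.0540). Marveld3 was near the limit of detection, with 20, 4 and 4 counts in mutant and 15, 40 and 25 counts in control libraries (adjusted p = 0.275), so its fold change carries little information.

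Lsr, the angulin that recruits tricellulin to tricellular contacts, fell. This gene, on chromosome 7 from 30957770 to 30973464 (minus strand), had 418, 425 and 442 CPM in the mutant libraries and 528, 535 and 544 CPM in the control libraries. The ranges were tight and far apart. Its log2 fold change was -0.32 ± 0.033 (SE, adjusted p = 0.000622), the smallest adjusted p among the 33 genes, and it was called in each of the 14 alternative analyses. The gene overlaps the antisense genes Gm17077 and Gm4673, and no source used here says whether reads were counted by strand. Microglia markers fell in the same libraries, and their part was not tested.

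Neither Tjp1 nor Tjp3, which encode zonula occludens scaffolds, was called. Tjp1 (ZO-1), which ties claudins and occludin to actin, had 692, 632 and 726 CPM in mutant and 715, 703 and 691 CPM in control libraries. The groups overlapped, the log2 fold change was -0.04 ± 0.051 (SE, adjusted p = 0.684), and the 95% interval ran from -0.161 to 0.078. Tjp3 (ZO-3), which overlaps the antisense gene Apba3, was barely detected, with 0.365, 0.888 and 0.688 CPM in mutant and 0.960, 0.795 and 1.22 CPM in control libraries (adjusted p = 0.351).

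Junctional adhesion molecules, immunoglobulin-type proteins of the cell contact, moved in both directions. F11r (JAM-A), on chromosome 1 from 171437535 to 171464603 (plus strand), had 276, 279.6 and 286 CPM in the mutant libraries and 233, 236 and 241 CPM in the control libraries. It rose without overlap (0.24 ± 0.031 SE, adjusted p = 0.00190) and was called in all 14 alternatives. Jam3 (JAM-C), on chromosome 9 from 27097384 to 27155421 (minus strand), had 26.4, 27.2 and 28.4 CPM in mutant and 23.0, 22.2 and 22.4 CPM in control libraries. It also rose (0.28 ± 0.057, adjusted p = 0.0153), with an adjusted p of 0.0552 when control library 2 was left out; the gene overlaps the antisense gene Gm48796.

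Jam2 (JAM-B), whose protein is a binding partner of JAM-C, fell. This gene, on chromosome 16 from 84774123 to 84825928 (plus strand), had 182, 184 and 211 CPM in the mutant libraries and 242, 249.6 and 251 CPM in the control libraries. Mutant library 3 was the closest to the control libraries, yet no values overlapped. The log2 fold change was -0.36 ± 0.060 (SE, adjusted p = 0.00644), and the call held in all 14 alternatives.

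Esam, an endothelial adhesion molecule and the second most abundant junction gene here per length, was not called. Its CPM was 969, 928 and 1045 in mutant and 1018, 1041 and 1065 in control libraries (-0.09 ± 0.047, adjusted p = 0.299). As a description, within the summed level of these 4 genes per exon length, F11r took 20.8 to 22.5% in mutant and 17.7 to 17.9% in control libraries, and Jam2 took 6.28 to 6.78% in mutant and 8.15 to 8.26% in control libraries. Per exon length F11r averaged 105 CPM per kb in mutant and 88.9 CPM per kb in control libraries, and Tjp1 averaged 87.5 CPM per kb in mutant and 90.0 CPM per kb in control libraries. The mutant libraries had F11r above Tjp1 without overlap, while in the control libraries the levels of this pair overlapped.

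**Figure D3:**
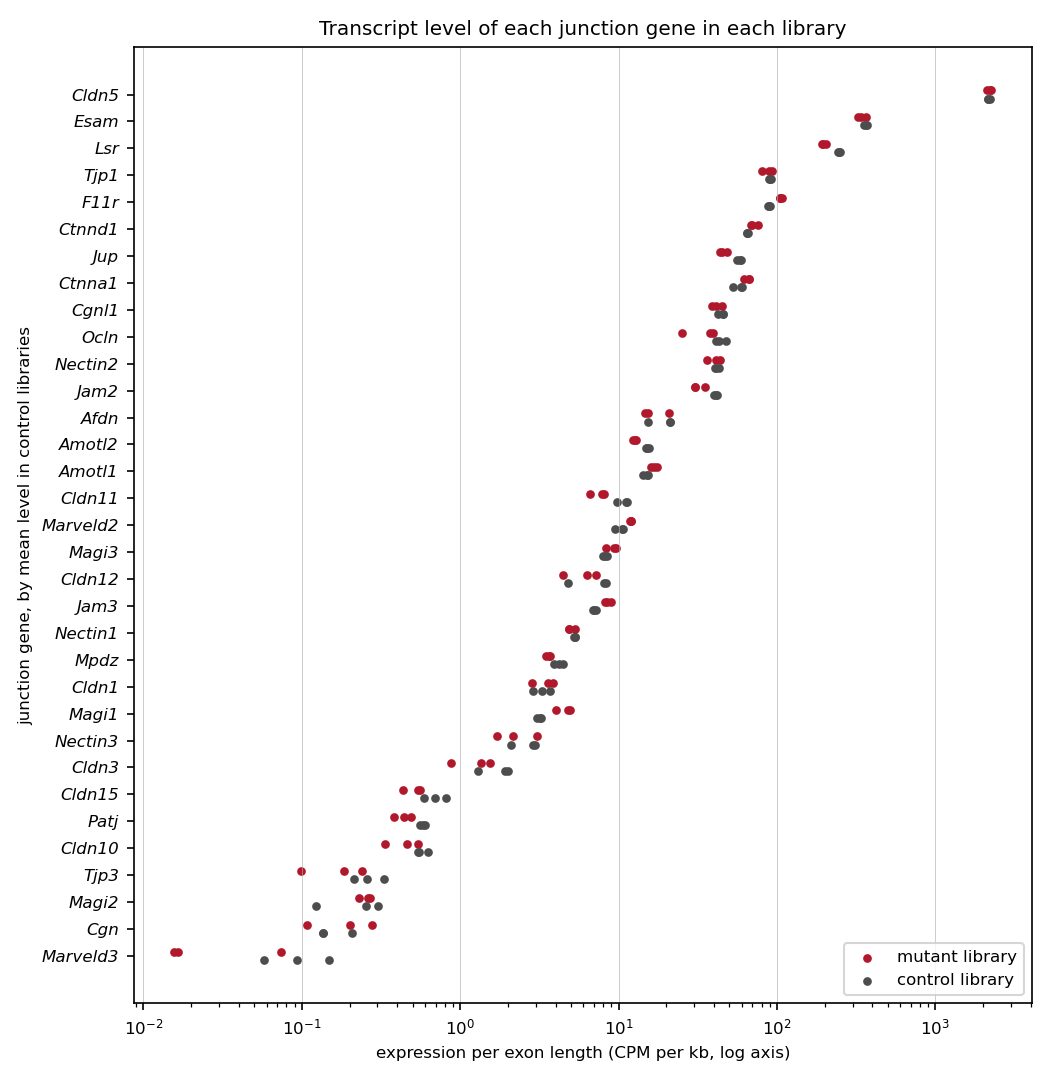
Level of each junction gene per exon length (CPM per kb, log axis) in every mutant (red) and control (grey) library, ordered by the control mean. Cldn5 stands highest, at 2186 CPM per kb in mutant and 2164 CPM per kb in control libraries on average, and Marveld3 lowest.

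Among the MAGI scaffolds, multi-PDZ proteins of cell contacts, Magi1 rose. On chromosome 6 from 93675455 to 94283917 (minus strand), it had 52.4, 50.8 and 42.6 CPM in the mutant libraries and 33.5, 34.2 and 32.3 CPM in the control libraries. Mutant library 3 was the lowest of its group and still above every control library. The log2 fold change of 0.54 ± 0.082 (SE, adjusted p = 0.00400) was the largest rise among the 33 genes, and all 14 alternatives kept the call.

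Magi3 had 79.9, 71.1 and 82.4 CPM in mutant and 67.4, 72.4 and 70.3 CPM in control libraries, with an overlap (0.15 ± 0.062, adjusted p = 0.164). Magi2, which shares exon sequence with Gm29254 on its strand, had 2.59 to 3.08 CPM in mutant and 1.40 to 3.45 CPM in control libraries (adjusted p = 0.809). Magi1 formed 28.8 to 35.9% of the summed MAGI level per length in mutant and 26.7 to 28.0% in control libraries, while Magi3 was the most abundant of the family in every library.

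The cingulins, which couple tight junctions to actomyosin, were not called. Cgnl1 (paracingulin) had 322, 304 and 354 CPM in mutant and 359, 356 and 335 CPM in control libraries (-0.10 ± 0.059, adjusted p = 0.347). Cgn itself was low, at 0.648 to 1.66 CPM in mutant and 0.818 to 1.25 CPM in control libraries (adjusted p = 0.700).

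None of Nectin1, Nectin2, Nectin3 and Afdn, of the cadherin-independent adhesion system of adherens junctions, was called. Nectin2, the most abundant per length, had 152, 143 and 127 CPM in mutant and 142, 144 and 149.6 CPM in control libraries (-0.04 ± 0.065, adjusted p = 0.744). Nectin1 was at 27.3 to 30.0 CPM in mutant and 29.7 to 30.0 CPM in control libraries (adjusted p = 0.461). Nectin3 varied within both groups, from 21.6 to 39.0 CPM in mutant and from 26.7 to 38.0 CPM in control libraries (adjusted p = 0.711). Afdn, the nectin-binding scaffold, had 151, 212 and 158 CPM in mutant and 217, 157 and 217 CPM in control libraries, so 1 library of each group resembled the other group (-0.18 ± 0.199, adjusted p = 0.649). Nectin2 overlaps the antisense gene Gm20512, and Afdn overlaps Tcte2.

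Of the catenins, Jup fell. It encodes plakoglobin, a catenin of adherens junctions and desmosomes, and lies on chromosome 11 from 100368958 to 100397763 (minus strand). Jup had 282, 291 and 309 CPM in the mutant libraries and 362, 382 and 374 CPM in the control libraries. The groups were well apart, with a log2 fold change of -0.34 ± 0.043 (SE, adjusted p = 0.00169), and the gene was called in all 14 alternatives.

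Ctnna1 (alpha-catenin, which links cadherin complexes to actin) had 398, 429 and 429 CPM in mutant and 386, 381 and 340.0 CPM in control libraries. The mutant libraries were all above the control libraries, but the adjusted p was 0.0754 (0.18 ± 0.056 SE), and the gene overlaps the antisense gene Lrrtm2. Ctnnd1 (p120-catenin, which holds cadherins at the membrane) had 504, 507 and 551 CPM in mutant and 473, 479 and 474 CPM in control libraries, again without overlap and short of the threshold (0.13 ± 0.041, adjusted p = 0.0770). It overlaps Gm28635 on its own strand. Plakoglobin made up 24.9 to 25.3% of the summed level of the 3 listed catenins per length in mutant and 31.1 to 33.0% in control libraries. That sum leaves out Ctnnb1, which averaged 278 CPM per kb in mutant and 284 CPM per kb in control libraries.

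The angiomotin genes Amotl1 and Amotl2, whose products connect junctions to actin and bind the Hippo effector YAP, split. Amotl2, on chromosome 9 from 102716672 to 102733418 (plus strand), had 81.1, 79.7 and 77.8 CPM in the mutant libraries and 97.2, 94.7 and 93.8 CPM in the control libraries. It fell without overlap (-0.26 ± 0.036 SE, adjusted p = 0.00282) and was called in all 14 alternatives. Amotl1, on chromosome 9 from 14541966 to 14645056 (minus strand), had 161, 168 and 175 CPM in mutant and 153, 153 and 144 CPM in control libraries. It rose, but only just past the threshold (0.16 ± 0.044, adjusted p = 0.0487), and the call was lost without any 1 of control libraries 1, 2 and 3 or mutant libraries 2 and 3 (adjusted p from 0.0922 to 0.130). Amotl1 formed 55.4 to 58.4% of the summed level of the pair per length in mutant and 49.0 to 50.2% in control libraries.

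Mpdz and Patj, large multi-PDZ scaffolds of the tight junction and the Crumbs polarity complex, were both lower in every mutant library. Mpdz, on chromosome 4 from 81278500 to 81442815 (minus strand), had 45.1, 43.3 and 45.6 CPM in mutant and 52.1, 55.6 and 48.4 CPM in control libraries. Its fall was borderline (-0.22 ± 0.060 SE, adjusted p = 0.0479) and was not called without control library 1 or 2 or any 1 of the mutant libraries (adjusted p from 0.0903 to 0.155). Patj had 6.36, 5.75 and 4.97 CPM in mutant and 7.86, 7.67 and 7.26 CPM in control libraries, and missed the threshold (-0.42 ± 0.118, adjusted p = 0.0573).

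**Figure D4:**
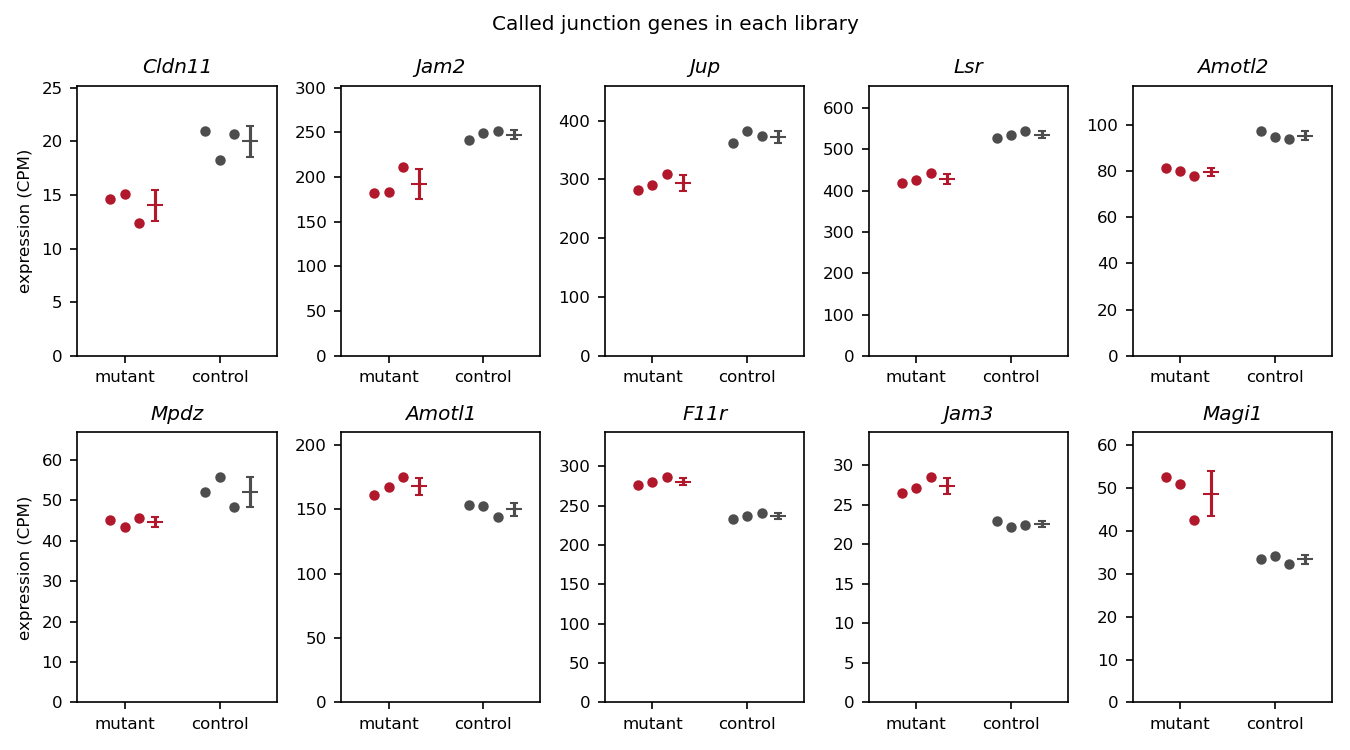
Expression (CPM) of the 10 called junction genes in each mutant (red) and control (grey) library, with the mean and SD of 3 libraries beside the points. In each panel the mutant points lie entirely above or entirely below the control points, and no estimated fold reaches 1.5.

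**Figure D5:**
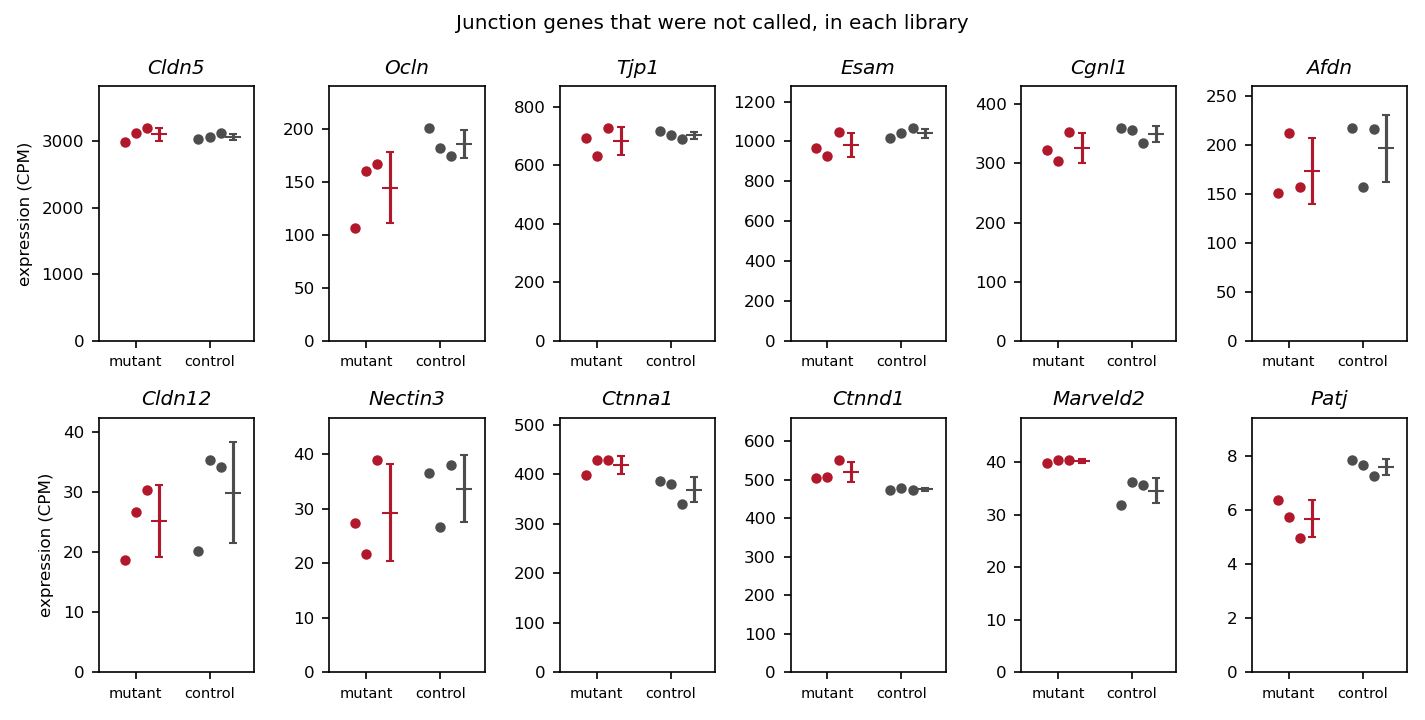
Expression (CPM) of 12 junction genes that were not called, drawn as in the plot of called genes. Cldn5, Tjp1 and Esam overlap between mutant and control libraries, mutant library 1 of Ocln lies at 106 CPM, below the others, and 1 library of each group stands apart for Afdn.

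Other genes of the same junctions, a list of 80 symbols with cadherins, polarity proteins and actin linkers, gave 71 tested genes, of which 7 (9.86%) were higher, beside 7.56% of all genes, and 14 (19.7%) lower, beside 6.83%, with a median log2 fold change of -0.06. The count of lower genes dropped to 6 when any 1 of control libraries 1 and 2 and mutant library 2 was left out, and to 8 without mutant library 1. This list, too, was chosen with earlier results of these data known, so its shares are a description. Cdh5, the cadherin of endothelial adherens junctions, had 1356, 1335 and 1439 CPM in mutant and 1493, 1558 and 1524 CPM in control libraries (-0.15 ± 0.037 SE, adjusted p = 0.0380). Ctnnb1 (beta-catenin) varied within the groups, with 1242 to 1553 CPM in mutant and 1173 to 1668 CPM in control libraries (adjusted p = 0.942).

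Ptprb, the endothelial phosphatase VE-PTP that binds VE-cadherin, fell to 718, 711 and 806 CPM in mutant libraries, against 1146, 1187 and 1100.3 CPM in control libraries (-0.62 ± 0.055, adjusted p = 0.000337). Pecam1, the adhesion molecule CD31 that was also used to isolate the cells, rose to 1492 ± 67.4 CPM in mutant libraries, against 1121 ± 20.3 CPM in control libraries (SD, n = 3; adjusted p = 0.000428). The afadin-binding protein gene Lmo7 had the largest fall among the called genes of at least 5 CPM in this list (-0.75 ± 0.081), at 12.6 ± 0.469 CPM in mutant and 21.2 ± 1.73 CPM in control libraries. Amot, the third angiomotin gene, fell as Amotl2 did, to 56.9 ± 3.32 CPM in mutant libraries, against 76.3 ± 4.05 CPM in control libraries (-0.42 ± 0.059, adjusted p = 0.00273).

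Arvcf and Pkp4, relatives of p120-catenin, fell too, with log2 fold changes of -0.33 ± 0.053 (adjusted p = 0.00592) and -0.38 ± 0.043 (adjusted p = 0.00110), whereas Ctnnd1 itself lay in the higher direction without a call. Cdh3 (P-cadherin) fell to 6.33 ± 0.327 CPM in mutant libraries, against 9.28 ± 0.053 CPM in control libraries (adjusted p = 0.00538).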

How the data were processed

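The 6 libraries of mouse brain endothelial cells were analysed. The authors deposited estimated counts per gene, already whole and without any normalization. HISAT2, StringTie 1.3.4, edgeR, cutadapt 1.10 and FastQC 0.10.1 are the tools and GRCm39 the build named in the submitters' processing notes, which give no roles, parameters or strand setting. All 55450 gene IDs matched GENCODE M21, which is on GRCm38, so symbols, exon lengths and coordinates come from there. Low counts pile up at multiples of 4 (1118 to 1190 genes with a count of 4, against 316 to 365 with 3), so a read pair is worth about 4 counts and sets the precision.

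Genes were filtered with filterByExpr (19549 kept) and scaled by TMM (factors 0.978 to 1.01). Mutant was compared with control with edgeR 4.0.16 (quasi-likelihood F test) in R 4.3.3, with robust fitting, group as the only term and Benjamini-Hochberg adjustment over all genes tested. The SE is the log2 fold change over the root of F. The 95% intervals use the total degrees of freedom of the test, which are the residual ones plus those gained by sharing information across genes. The planned test for counts was run on the estimated counts, which needed no rounding. CPM uses the TMM-scaled totals. Run on simulated counts drawn with the fitted gene-wise dispersions, the test recovered most of the largest changes, but more of its calls were false than the adjusted threshold allows, so calls close to that threshold are less certain. Within each genotype every pair of libraries differed beyond sampling noise (median chi-square 1.81 to 2.62 times expectation), so none were merged.

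Called genes and claudins are given per library. Of the other junction genes, the called ones of at least 5 CPM with the largest fold change (at most 8) are named, plus Cdh5 and Ctnnb1; some genes that this rule picks are not reported here. Members and lists were chosen with earlier results of these data known. Alternatives were RLE factors, library size only, no or a stricter filter (5 CPM in 3 libraries), DESeq2 1.42.0, limma-voom (limma 3.58.1), counts divided by 4, each library left out and a replicate block. The deposited read quality table was not used. Promoter windows are from RefSeq.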

Additional observations from a re-analysis of the deposited data

How the results depend on the processing

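Of 140 comparisons of the 10 called genes with an alternative, 121 kept the call and the direction and 19 kept the direction only. Lsr, F11r, Jam2, Jup, Amotl2 and Magi1 were called throughout. Mpdz was also not called with RLE factors (adjusted p = 0.0548), limma-voom (0.0554) or counts divided by 4 (0.0527), and Amotl1 not with limma-voom (0.0527). Over the fits with 1 library left out, 2 to 4 junction genes were called higher and 4 to 6 lower; for the other junction genes these were 5 to 7 and 6 to 16, and for all genes 1100 to 1270 and 807 to 1125. Leaving out control library 2 gave the 2 junction genes called higher, and fewest genes were called lower when control library 1 (807 genes), control library 2 (861 genes) or mutant library 2 (865 genes) was omitted. The cause was not tested, though fewer libraries enter each such fit.

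Marveld2 was called higher without the filter (adjusted p = 0.0469), with the stricter filter (0.0445), DESeq2 (0.0264) and counts divided by 4 (0.0444); Ctnnd1 with library size only (0.0422), the stricter filter (0.0470) and counts divided by 4 (0.0468). Patj was called lower with DESeq2 (0.0223), the stricter filter (0.0497) and without mutant library 1 (0.0496), and Magi3 higher without mutant library 2 (0.0418). The sign of some uncalled genes turned when 1 library was left out: the log2 fold change ranged from -0.026 to 0.19 for Cldn1, from -0.0010 to 0.041 for Cldn5, from -0.082 to 0.019 for Tjp1, from -0.037 to 0.58 for Cgn, from -0.14 to 0.44 for Magi2 and from -0.10 to 0.030 for Nectin2.

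Same-numbered libraries did not deviate together (correlations of -0.023, 0.0097 and 0.023), so the replicate numbers were not treated as pairs. With a replicate block, 2 junction genes were called higher and 6 of the other junction genes lower; Jam3 (adjusted p = 0.0589), Mpdz (0.114) and Amotl1 (0.127) were not called. Junction genes of about 1 CPM rest on few read pairs and could show large changes only.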

Other observations

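Some further junction genes, chosen after their values were seen, differed more between the groups than any of the 33 that were called. Pkp2, which encodes the desmosomal protein plakophilin 2, had 6.04, 5.50 and 6.83 CPM in mutant and 2.83, 3.46 and 2.95 CPM in control libraries (log2 fold change 0.99 ± 0.138 SE, adjusted p = 0.00282). Cldn6, a claudin best known from embryonic epithelia, had 1.79, 2.14 and 1.61 CPM in mutant and 0.670, 0.452 and 0.806 CPM in control libraries (1.52 ± 0.269, adjusted p = 0.00868). Both are scarce transcripts.

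Cldnd1, a claudin-domain gene for which Cldn25 is listed as a synonym, had 29.0, 35.2 and 65.3 CPM in mutant and 74.3, 63.0 and 61.3 CPM in control libraries, with mutant library 3 among the control values (-0.62 ± 0.347, adjusted p = 0.356). Cldn25-ps had no counts in the mutant libraries and a trace in control library 1. The remaining marker lists gave these counts of called genes: astrocyte markers 0 higher and 2 lower of 10, neuron markers 0 and 1 of 11, erythroid markers 0 and 5 of 7, platelet markers 1 and 0 of 7, and lymphatic markers 1 and 2 of 7. Of all genes tested, 7.56% were higher and 6.83% lower. Summed CPM in mutant and control libraries was 294 to 424 and 515 to 568 for astrocyte markers. The 2 most abundant of these were not called. Gja1 averaged 159 CPM in mutant and 269 CPM in control libraries, with mutant library 2 at 79.2 CPM (adjusted p = 0.326). Slc1a3 averaged 35.9 CPM in mutant and 74.0 CPM in control libraries (adjusted p = 0.113). The sum was 4665 to 4961 and 6974 to 7179 for erythroid markers, and 709 to 746 and 762 to 779 for lymphatic markers. Platelet sums lay higher, at 35.7 to 40.3 and 20.9 to 27.9. Itgb3, the only called gene of the platelet list, averaged 24.6 CPM in mutant and 10.0 CPM in control libraries. The median log2 fold change of that list was -0.19, so its higher sum does not describe most of its genes. Neuron sums overlapped.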
